A study of Mus musculus with 35 samples.

Results

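The trefoil factors, mucins and gastric genes described here were 10 of the 53465 genes counted in sorted mouse pancreatic tumor cells: Tff1, Tff2, Tff3, Muc1, Muc4, Muc5ac, Muc6, Gkn1, Agr2 and Cldn18. They were chosen by gene name, with earlier results of these data known. The only measured value in the rule was the total count, which decides between identifiers that share a name, and each of the 10 names had 1 identifier. Every member called between a metastatic site and the primary tumors was higher in the metastases. Tff2 was higher in primary tumors labelled Smad4 on than in those labelled Smad4 off on both days, and Tff1 and Tff3 passed the test at day 14.

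Trefoil factors are small secreted peptides of mucus-producing epithelia that help to repair the mucosal surface. Mucins are heavily O-glycosylated proteins, either secreted to form the mucus gel (Muc5ac and Muc6) or anchored in the apical membrane (Muc1 and Muc4). Gkn1 is a secreted protein of gastric surface mucous cells, Agr2 is an endoplasmic reticulum protein disulfide isomerase needed for mucin folding, and Cldn18 is a tight junction claudin of stomach and lung epithelium. In the stomach Tff1 and Muc5ac belong to the surface mucous cells and Tff2 and Muc6 to the mucous neck and gland cells. Precancerous lesions and well-differentiated tumors of the pancreas are known to switch on such a gastric mucous program, whereas normal acinar cells do not carry it.

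The tumor cells came from KC-shSmad4 lines, derived from tumors of mice with Ptf1a-Cre, which acts in the embryonic pancreas. The mice also had LSL-rtTA3-IRES-mKate2 in Rosa26 and, in Col1a1, a GFP-linked, doxycycline-inducible hairpin against Smad4. Every library, including the controls, carried these alleles. The lines were transplanted into female Foxn1 nu (athymic nude) mice of 6 to 8 weeks, which lack T cells, by injection into the pancreas, into the spleen for liver metastases or into the tail vein for lung metastases. Doxycycline chow was withdrawn (Smad4 on) 4, 5 or 6 weeks after injection in the pancreas, liver and lung assays, or kept (Smad4 off), and mKate2+ cells were sorted 7 or 14 days after withdrawal. The study used several independent lines, and the labels do not say which line gave a library.

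The groups held 3 libraries labelled Smad4 off and 2 labelled on for primary tumors at day 7, 2 and 3 at day 14, 2 and 3 for liver metastases at day 7, 3 and 3 at day 14, 4 and 2 for lung metastases at day 7, and 4 and 4 at day 14. Library totals ran from 11885461 to 43571007 counts, so that 3 counts equalled 0.0689 to 0.252 CPM, the count of a gene per 1000000 counts of the library. The Smad4 mRNA went against the labels: the 18 libraries labelled off held 77.9 to 132 CPM and the 17 labelled on held 14.4 to 23.2 CPM. Groups are therefore named by their labels, fold changes are those of libraries labelled on over libraries labelled off, and the higher side of a positive value is the side with less Smad4 mRNA. One liver library, day 7 labelled off replicate 2, was the only one labelled paired-end. Its median correlation was 0.947 with the primary tumors and 0.845 with the other liver libraries. Its summed fibroblast markers reached 30120 CPM, against 225 to 4166 CPM in the liver groups of day 14. In addition, 10 liver and lung libraries, and none from the pancreas, held counts of the mitochondrial gene mt-Co3.

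Promoter sequences were at hand for 6 of the 10 genes, from the RefSeq table of build GRCm38.p6, which gives 250 bases before and 50 after a gene's start. Those of 3 genes are shown, 5′ to 3′ on the gene's strand. Those of Muc1 (chr3:89228806-89229105, plus strand) and Muc4 (chr16:32735636-32735935, plus strand) belong to the pair whose levels were most alike. Those of Cldn18 (chr9:99717218-99717517 and chr9:99710014-99710313, minus strand) are its 2 alternative starts, of which the upstream one is known as the lung start and the downstream one as the stomach start. Capitals mark CAGAC, a short Smad-binding sequence, searched on both strands (as CAGAC or GTCTG).
Muc1: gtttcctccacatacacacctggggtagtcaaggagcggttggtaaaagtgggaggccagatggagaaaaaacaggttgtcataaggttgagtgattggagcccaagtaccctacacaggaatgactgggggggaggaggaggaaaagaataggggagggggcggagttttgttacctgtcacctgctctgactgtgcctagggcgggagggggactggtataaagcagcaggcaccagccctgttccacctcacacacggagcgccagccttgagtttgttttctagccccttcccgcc
Muc4: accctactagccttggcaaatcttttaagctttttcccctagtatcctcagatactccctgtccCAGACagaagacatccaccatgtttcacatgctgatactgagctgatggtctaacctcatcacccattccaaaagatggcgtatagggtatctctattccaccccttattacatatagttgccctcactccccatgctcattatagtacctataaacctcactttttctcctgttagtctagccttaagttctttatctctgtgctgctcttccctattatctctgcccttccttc
Cldn18 upstream: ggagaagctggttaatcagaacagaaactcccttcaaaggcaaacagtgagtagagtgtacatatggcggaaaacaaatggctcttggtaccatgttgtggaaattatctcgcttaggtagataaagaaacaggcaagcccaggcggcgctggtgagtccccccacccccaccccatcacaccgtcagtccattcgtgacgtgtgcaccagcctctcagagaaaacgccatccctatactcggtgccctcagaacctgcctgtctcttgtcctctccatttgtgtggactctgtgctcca
Cldn18 downstream: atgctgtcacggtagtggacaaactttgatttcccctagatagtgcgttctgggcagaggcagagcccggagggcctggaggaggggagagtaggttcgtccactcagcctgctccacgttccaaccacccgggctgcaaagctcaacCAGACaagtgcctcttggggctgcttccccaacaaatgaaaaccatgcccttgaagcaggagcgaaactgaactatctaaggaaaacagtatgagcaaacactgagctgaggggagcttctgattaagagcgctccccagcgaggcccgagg

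CAGAC occurred once in the Muc4 window, beginning at position -186 with the gene's start as 0, and once in the downstream Cldn18 window, at position -102. It was absent from the Muc1 window and from the upstream Cldn18 window. Of the 7 windows of members, 4 held it, against 49.6% of all 32851 promoters in the table. CACCC, a KLF-type sequence, was in 6 of the 7 windows and 57.5% of all promoters, and TGTGGT, a Runx-type sequence, was in 1 (that of Gkn1) and 16.8%. These are matches of letters, not binding sites. The gene counts do not separate the 2 starts of Cldn18.

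On a scale that allows genes to be compared (CPM per kilobase of transcript, median over the 35 libraries), Tff2 was the most abundant at 636. Tff3 followed at 94.9, Muc1 at 91.6 and Agr2 at 32.3. Tff1 stood at 4.46, Muc4 at 3.03 and Gkn1 at 2.90. Cldn18 (0.526), Muc5ac (0.258) and Muc6 (0.0462) were the lowest. Tff2 made up 20.9% to 56.6% of the summed CPM of the 10 genes in a library. That sum was 121 CPM in the lowest library, a day 7 primary tumor labelled off, apart from 61.9 CPM in the paired-end liver library, and reached 6710 CPM in a day 7 liver library labelled on. Muc6 had 388 counts in all libraries together, of which 75 were in 1 library, lung metastasis day 7 labelled off replicate 4.

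**Figure D1:**
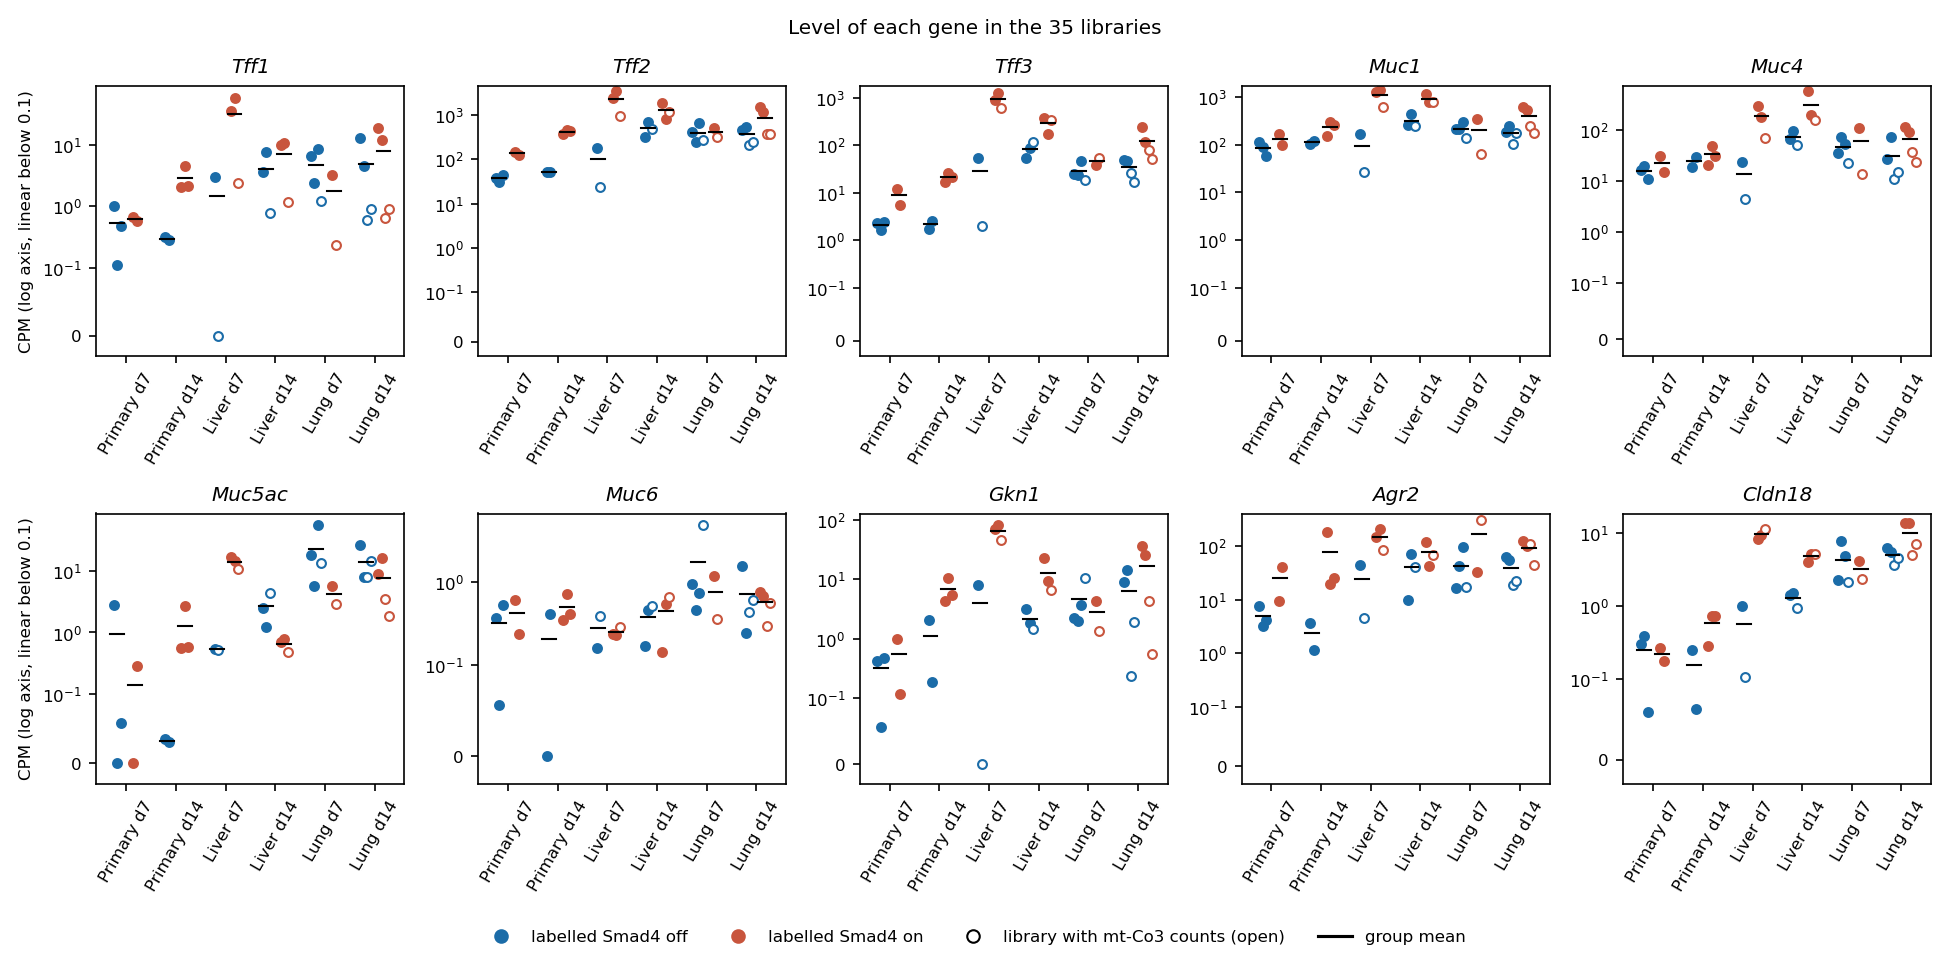
CPM of each gene in every library (y axis, logarithmic above 0.1 and linear below), by organ and day (x axis), with 1 point per library, blue for labelled Smad4 off, red for labelled on, open for libraries with mt-Co3 counts, and a bar at the group mean. Tff2 ran from 23.6 CPM in the paired-end liver library to 3492 CPM in a day 7 liver library labelled on, and Muc6 stayed below 5 CPM.

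The 3 trefoil genes lie side by side on the minus strand of chromosome 17 (GRCm38): Tff3 at 31125306 to 31129646, Tff2 at 31141049 to 31144282 and Tff1 at 31161396 to 31165053. In primary tumors at day 7, Tff2, the mucous neck cell trefoil factor, was at 38.4, 30.2 and 44.6 CPM in the libraries labelled off and at 146 and 124.5 CPM in those labelled on. At day 14 it was at 52.2 and 52.8 CPM against 372, 451 and 442 CPM. The groups did not overlap on either day, and the log2 fold change was 1.82 ± 0.17 (SE; edgeR adjusted p = 0.00944) at day 7 and 2.91 ± 0.12 (edgeR adjusted p = 5.4e-05) at day 14. Library totals of primary tumors overlapped between labels at day 7. At day 14 they were 28557488 and 32195795 counts when labelled off, against 12200163 to 14255679 counts when labelled on. Label and library total therefore cannot be told apart for any gene in the day 14 comparison, and the part of the totals was not tested.

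Tff3, the trefoil factor of intestinal goblet cells, was at 2.35, 1.62 and 2.42 CPM in day 7 primary tumors labelled off and at 12.3 and 5.67 CPM in those labelled on. The groups were apart, but the log2 fold change of 2.06 ± 0.39 missed the threshold (edgeR adjusted p = 0.0532). At day 14 it was at 1.75 and 2.58 CPM against 16.6, 25.8 and 21.6 CPM, again without overlap, and rose by 3.19 ± 0.27 on the log2 scale (edgeR adjusted p = 0.000907).

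Tff1, the trefoil factor of gastric surface cells, was low in primary tumors. At day 7 it was at 1.03, 0.112 and 0.471 CPM against 0.669 and 0.578 CPM, and the groups overlapped. At day 14 it was at 0.315 and 0.280 CPM in the libraries labelled off, 9 counts in each, and at 2.03, 4.54 and 2.13 CPM in those labelled on. That difference passed the test (log2 fold change 3.16 ± 0.53, edgeR adjusted p = 0.00832). A gene was called when its fold change was over 2 and its adjusted p, over all genes tested, under 0.05. Lack of overlap describes single genes here, as no share of all genes without overlap is set beside it.

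Of the mucins in primary tumors, Muc1 and Muc4 were not called on either day. Muc1 was at 105 and 120 CPM against 153, 293 and 252 CPM at day 14, which did not overlap (log2 fold change 0.96 ± 0.29, edgeR adjusted p = 0.106). Muc4 overlapped, at 19.1 and 29.1 CPM against 21.0, 48.0 and 30.7 CPM. The secreted mucins were close to absent: Muc5ac gave 1 count in each day 14 library labelled off and 8, 33 and 7 counts in those labelled on, and like Muc6 it did not pass the filter on low counts.

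Agr2 had the largest standard error (1.65) of the members tested in day 14 primary tumors. It was then at 3.71 and 1.12 CPM in the libraries labelled off and at 186, 19.6 and 24.8 CPM in those labelled on. The groups were apart, yet the log2 fold change of 4.93 had a 95% interval of 0.37 to 9.49 (edgeR adjusted p = 0.154), with 1 library far above the others. At day 7 Agr2 was at 7.55, 3.24 and 4.07 CPM against 9.30 and 40.4 CPM, also apart and not called (edgeR adjusted p = 0.133). Gkn1 was at 2.03 and 0.186 CPM against 4.35, 10.6 and 5.41 CPM at day 14 and Cldn18 at 0.245 and 0.0621 CPM against 0.281, 0.717 and 0.738 CPM, neither of them called.

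Across the set, 1 of the 6 members tested in primary tumors at day 7 was called, beside 1.33% of all 14439 genes, and 3 of the 8 tested at day 14, beside 4.64% of 14234. All calls were higher in the libraries labelled on. The median log2 fold change was 1.20 over the members tested at day 7 (0.01 over all genes) and 2.72 at day 14 (0.02 over all genes). Leaving out replicate 1 labelled on removed the Tff2 call at day 7 (0.153% of all genes called). At day 14, leaving out 1 library at a time gave 2 members called without replicate 2 labelled off (1.8% of all genes) to 6 without replicate 1 labelled on (6.75%). In 1 fit of all 12 groups, which share 1 estimate of the spread, no member was called on either day, beside 0.239% of all genes at day 7 and 0.0912% at day 14. Pancreatic tumor epithelial markers (Krt8, Krt18, Krt19, Krt7, Epcam and Cdh1) moved in the same direction: their summed level was 2462 to 3890 CPM in day 7 libraries labelled off and 3511 to 4623 CPM in those labelled on, and 4134 to 4428 CPM against 5795 to 8086 CPM at day 14. At day 7 acinar markers were at 1827 to 2921 CPM against 686 to 942 CPM, and fibroblast markers at 11130 to 17100 CPM against 23460 to 23870 CPM. Their part in the result was not tested. In bulk libraries such as these, fewer cells of a type and less RNA per cell cannot be told apart.

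In liver metastases at day 7 the median log2 fold change of the members tested, 3.98 (-0.06 over all genes), was the largest of the 6 label comparisons. Tff2 was at 175 and 23.6 CPM in the libraries labelled off and at 2358, 3492 and 950 CPM in those labelled on. Tff3 was at 55.5 and 1.97 CPM against 913, 1278 and 603 CPM. These groups did not overlap for either gene. The 3 liver libraries labelled on held the highest Tff3 levels of the series, and the highest Tff2 level was in one of them.

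Muc1, the membrane mucin of most glandular epithelia, was at 163 and 26.4 CPM against 1242, 1389 and 604 CPM. Muc4, a large membrane mucin that pairs with ErbB2, was at 23.2 and 4.39 CPM against 298, 182 and 71.0 CPM. Tff1 was at 2.96 and 0 CPM against 34.99, 58.1 and 2.40 CPM, and these ranges met. At an unadjusted p under 0.05 there were 7 of the 9 members tested, beside 27.1% of all genes. Gkn1 was at 7.85 and 0 CPM against 70.4, 80.2 and 45.4 CPM. The second library labelled off, the paired-end one, was the lower of the pair for every gene tested.

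Agr2 was at 44.6 and 4.50 CPM against 145, 207 and 84.8 CPM and Cldn18 at 1.01 and 0.105 CPM against 8.20, 9.48 and 11.2 CPM. Muc5ac, the gel-forming mucin of the gastric surface and the airway, was the one gene at the same level in both libraries labelled off, 0.551 and 0.527 CPM, and it was at 16.7, 14.1 and 10.8 CPM in those labelled on. It was the only one of the 9 members tested that was called (log2 fold change 4.51 ± 0.37, edgeR adjusted p = 0.0477), beside 0.444% of all genes. The other 8 had log2 fold changes of 2.48 to 4.94 with edgeR adjusted p of 0.0824 to 0.25. Muc6 did not pass the filter, at 0.161 and 0.387 CPM against 0.236, 0.230 and 0.286 CPM.

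The number called in liver metastases at day 7 rested on the libraries in the fit. Without the paired-end library 4 members were called (Muc5ac, Cldn18, Gkn1 and Tff3, with log2 fold changes of 4.58, 3.19, 2.99 and 4.00), beside 4.98% of all genes. That fit leaves 1 library labelled off, which is assumed to vary like the others. When mt-Co3 status was a covariate 4 were called (Muc5ac, Tff2, Muc1 and Muc4), beside 6.38%. Leaving out any 1 of the 3 libraries labelled on left no member and no gene called. Leaving out replicate 1 labelled off, with the paired-end library alone on that side, gave 8 members and 19.8% of all genes, DESeq2 gave 7 and 9.87%, and the libraries without mt-Co3 counts alone gave 9 and 20.8%. Within the libraries without mt-Co3 counts (2 labelled on, 1 off) and within those with them (1 and 1), 9 of the 10 members were higher in the libraries labelled on, as were 38.1% of all genes tested, and none was lower (25.2% of all genes). The summed tumor epithelial markers were at 12210 and 3205 CPM in the libraries labelled off and at 14230 to 16420 CPM in those labelled on, hepatocyte markers at 1.23 to 16.6 CPM against 56.0 to 130.5 CPM and leukocyte markers at 23.65 to 25.6 CPM against 80.5 to 96.6 CPM. Of the hepatocyte markers over all liver libraries, Apoa1 reached 103.6 CPM, Ttr 41.0 CPM and Alb 16.3 CPM. Fgb, Cyp2e1 and Serpina1c reached at most 2.22 CPM. Apoa1 also reached 38.0 CPM in lung libraries, where Alb was at most 0.505 CPM, so the sum is an uncertain measure of hepatocyte content. The part of all these markers in the label differences was not tested.

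**Figure D2:**
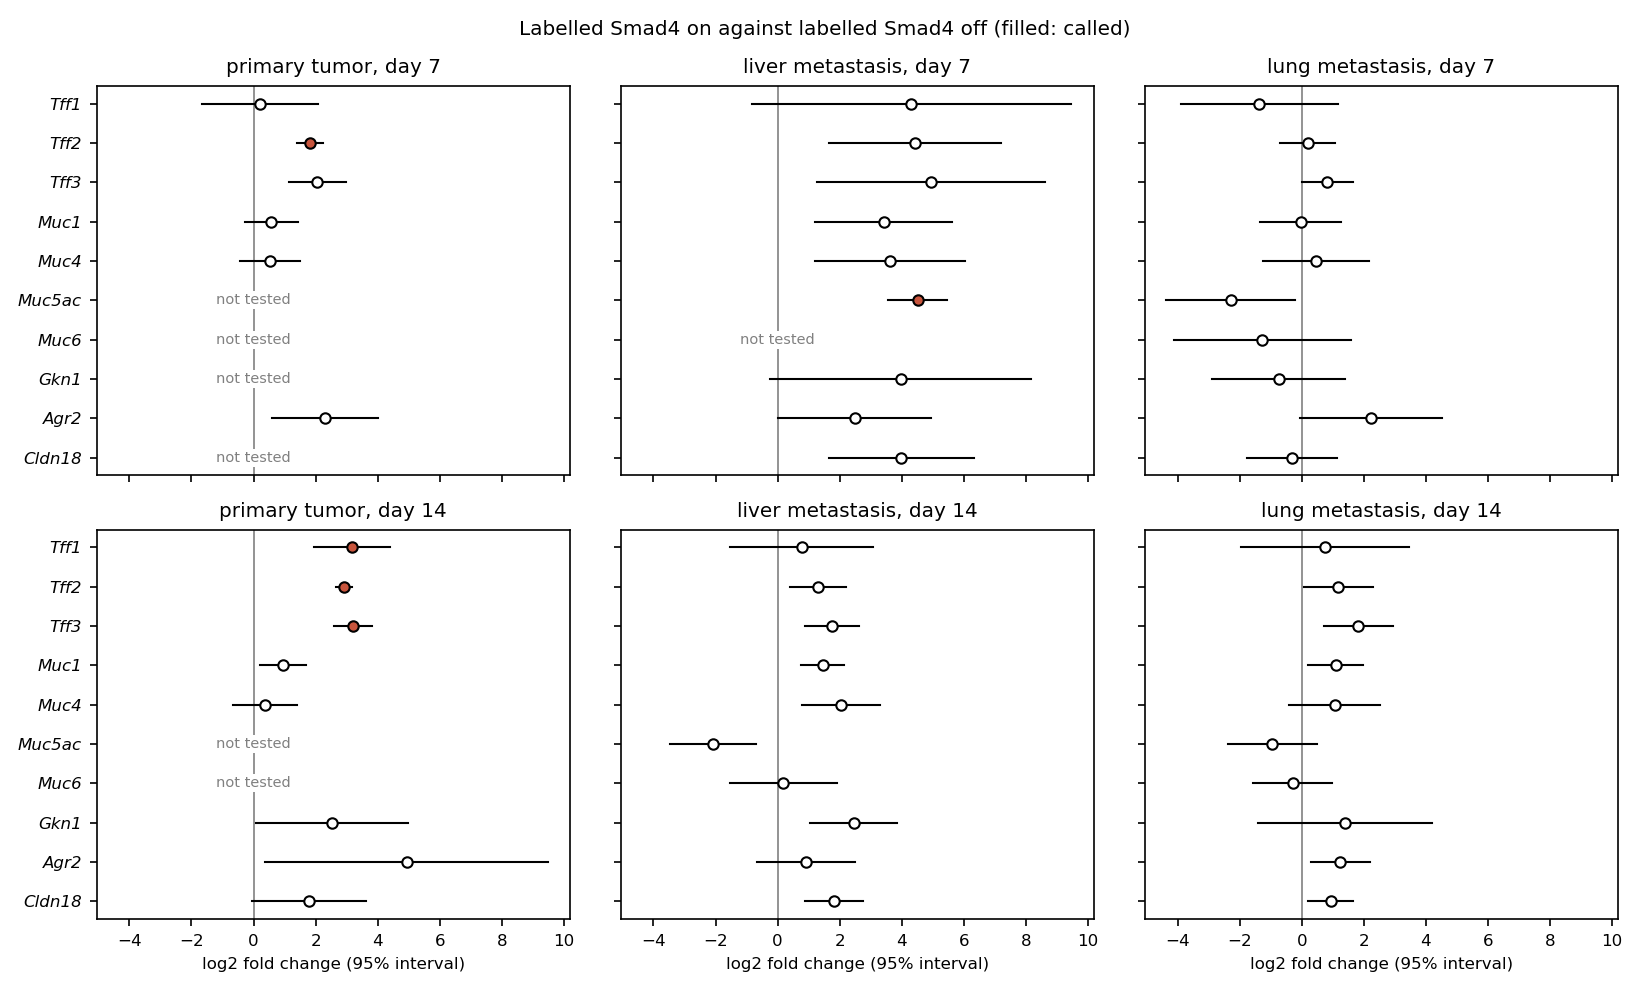
Log2 fold change of libraries labelled Smad4 on over those labelled off (x axis) with its 95% interval (line) for each gene (y axis), by organ and day. Filled points were called, and genes that did not pass the filter are marked as not tested. Calls were Tff2 in day 7 primary tumors, Tff1, Tff2 and Tff3 in day 14 primary tumors and Muc5ac in day 7 liver metastases.

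At day 14 in liver metastases Muc5ac stood on the opposite side. It was at 2.49, 1.20 and 4.42 CPM in the libraries labelled off and at 0.711, 0.788 and 0.487 CPM in those labelled on, without overlap. The log2 fold change was -2.08 ± 0.58 (edgeR adjusted p = 0.371). The libraries labelled on of day 7 and day 14 thus held 10.8 to 16.7 and 0.487 to 0.788 CPM.

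The remaining 9 members had positive log2 fold changes at day 14, that of Muc6 being 0.19. Tff3 was at 54.0, 86.6 and 116 CPM against 375, 177 and 342 CPM. Muc1 was at 263, 439 and 242 CPM against 1134, 788 and 774 CPM, and Muc4 at 67.0, 97.1 and 49.8 CPM against 571, 200 and 159 CPM. None of these groups overlapped, and neither did those of Tff2 (325 to 690 CPM against 789 to 1867 CPM), Gkn1 (1.44 to 3.18 CPM against 6.49 to 22.6 CPM) and Cldn18 (0.925 to 1.505 CPM against 3.98 to 5.23 CPM). No share of all genes without overlap is set beside this.

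Agr2 overlapped, at 9.68, 70.5 and 40.0 CPM against 120, 42.1 and 68.5 CPM. Tff1 also overlapped, at 3.60, 7.71 and 0.771 CPM against 9.81, 10.7 and 1.19 CPM. In both groups the lowest Tff1 value was that of the library with mt-Co3 counts. Within the libraries without those counts, and within the pair with them, 7 members (Tff1, Tff2, Tff3, Muc1, Muc4, Gkn1 and Cldn18) were higher (17.7% of all genes tested) and 1 (Muc5ac) was lower (11.2%) in the libraries labelled on.

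No member was called in day 14 liver metastases by edgeR, as no gene was (0% of 14947 genes). At an unadjusted p under 0.05 there were 7 members and 9.68% of all genes. DESeq2 called 6 members, beside 1.18% of the 28846 genes with any count, a wider set than the 14947 that passed the filter. Of these members 5 were higher (Tff3, Muc1, Muc4, Gkn1 and Cldn18) and 1 was lower (Muc5ac). The adjusted p of the 10 members by edgeR ran from 0.357 to 0.96. Leukocyte markers stood at 46.0 to 108.5 CPM in the libraries labelled off and at 92.6 to 339 CPM in those labelled on, and their part was not tested.

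In lung metastases at day 7 the median log2 fold change of the members was -0.17 (0.00 over all genes). Tff2 was at 418, 245, 641 and 271 CPM in the libraries labelled off and at 508 and 325 CPM in those labelled on. Muc1 was at 215, 212, 291 and 140 CPM against 344 and 62.7 CPM. Both overlapped, with 95% intervals of the log2 fold change of -0.69 to 1.07 for Tff2 and -1.34 to 1.27 for Muc1.

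Muc5ac was at 17.7, 5.67, 53.5 and 13.1 CPM against 5.55 and 2.93 CPM, the only member whose groups did not overlap, and it was the lower one in the libraries labelled on (log2 fold change -2.29 ± 0.87, edgeR adjusted p = 0.956). Agr2 was at 16.7, 41.7, 95.1 and 17.5 CPM against 32.1 and 306 CPM. No member was called by edgeR (0% of 15193 genes) or by DESeq2 (0.401% of all genes). Within both kinds of mt-Co3 status 0 members were higher in the libraries labelled on (10.7% of all genes) and 1, Muc5ac, was lower (18.6%). At an unadjusted p under 0.05 there were 2 members, Tff3 and Muc5ac, and 5.22% of all genes.

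In lung metastases at day 14 the libraries without mt-Co3 counts (replicates 1 and 2 of each label) and those with them (replicates 3 and 4) lay apart. Tff2 was at 455 and 542 CPM in the former and 208 and 246 CPM in the latter when labelled off, and at 1499 and 1141 CPM and 371 and 368 CPM when labelled on. Tff3 was at 49.7 and 46.8 CPM and at 25.7 and 17.3 CPM when labelled off, and at 248 and 121 CPM and 79.7 and 52.5 CPM when labelled on. For Tff2 the labels overlapped over all 8 libraries but not within either kind of mt-Co3 status, and for Tff3 they did not overlap at all.

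Muc1 was at 184 and 245 CPM and at 103 and 176 CPM when labelled off, against 621 and 527 CPM and 243 and 177 CPM. Agr2 was at 62.6 and 54.9 CPM and at 18.9 and 21.8 CPM, against 123 and 100 CPM and 107 and 44.5 CPM. Cldn18 was at 6.29 and 5.56 CPM and at 3.70 and 4.62 CPM, against 13.8 and 13.8 CPM and 5.08 and 7.01 CPM. With Muc4, these made 6 members that were higher in the libraries labelled on within both kinds of mt-Co3 status (10.7% of all genes tested). None was lower in both (5.4%). Lung epithelial markers were at 170 to 358 CPM in the libraries labelled off and 202 to 521 CPM in those labelled on, and leukocyte markers at 79.8 to 256 CPM against 159 to 480 CPM. Their part was not tested.

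Muc5ac was at 25.7 and 7.96 CPM and at 7.75 and 14.5 CPM when labelled off, against 8.78 and 15.9 CPM and 3.48 and 1.87 CPM, so that the labels overlapped in the libraries without mt-Co3 counts and did not in those with them. Tff1 was at 13.2 and 4.61 CPM and at 0.590 and 0.886 CPM, against 18.6 and 11.9 CPM and 0.650 and 0.908 CPM. For Tff1 the labels overlapped within both kinds of mt-Co3 status, and the libraries without mt-Co3 counts did not overlap those with them.

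Without regard to mt-Co3 status no member was called by edgeR at day 14 in the lung, beside 0.0271% of 14751 genes. At an unadjusted p under 0.05 there were 5 members and 10.1% of all genes, and DESeq2 called 1, Tff3, beside 0.734%. Same-numbered libraries of this comparison correlated in their deviations from the group means (0.546 to 0.653). The same-numbered library was the closest match for number 3 only, and the numbers also follow mt-Co3 status, so pairs are not established. With the numbers as a block Tff3 was called (log2 fold change 1.69, edgeR adjusted p = 0.00606), beside 0.739% of all genes. With mt-Co3 status as a covariate Tff2 (1.01, edgeR adjusted p = 0.0295) and Tff3 (1.74, edgeR adjusted p = 0.0329) were called, beside 0.861%. Within either kind of mt-Co3 status alone, with 2 libraries a label, none was called. The shares of all genes were 0.123% in the libraries without mt-Co3 counts and 0.0202% in those with them.

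**Figure D3:**
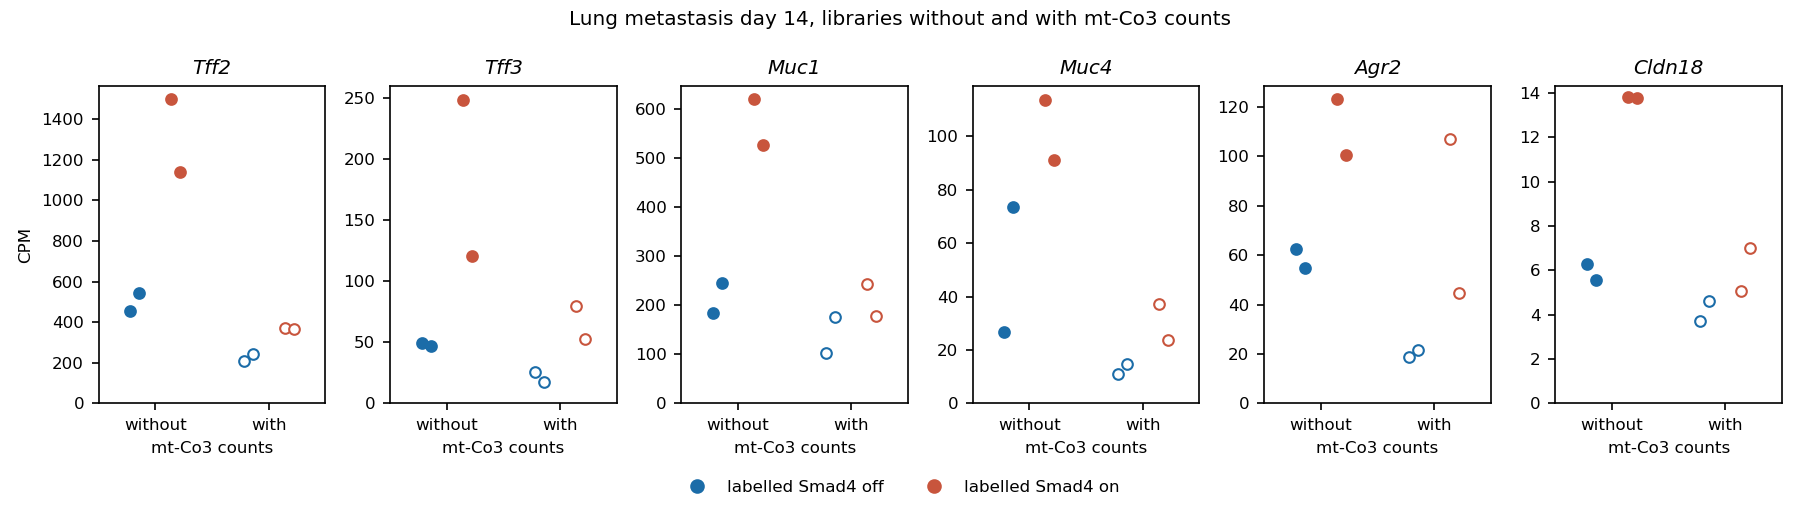
CPM (y axis, from 0) of 6 genes in day 14 lung metastases, split by whether a library held mt-Co3 counts (x axis), with 1 point per library, blue for labelled Smad4 off and red for labelled on. The 6 genes shown are those whose libraries labelled on lay above those labelled off on either side, for Muc1 by as little as 177 against 176 CPM. Tff1, Muc5ac, Muc6 and Gkn1 did not meet this and are not shown.

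In all 8 liver and lung groups the libraries with mt-Co3 counts were lower than the others of their group in Tff1, Muc1 and Muc4. For Gkn1 this held in 7 of the 8 groups, for Cldn18 in 6, for Tff2, Tff3 and Muc5ac in 5 and for Agr2 in 3. Muc6 was higher in them in 5 groups and lower in 2. Tff3 was higher in 2 groups, and Muc5ac, Gkn1, Agr2 and Cldn18 in 1 each. A group held only 1 or 2 such libraries, and no share of all genes is set beside these counts, which describe single genes.

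Whether the difference between labels itself differed between organs was tested in 6 fits, which share libraries with the comparisons above. At day 7, liver minus lung, all 10 members had positive values and 1, Muc5ac, was called (log2 6.86 ± 1.14, edgeR adjusted p = 0.0372), beside 1.86% of all genes. DESeq2 called 6 there, beside 6.05%. The Muc5ac call was lost by edgeR without the paired-end library (0.0288% of all genes called), and when any 1 of 7 further libraries of these groups was left out. At day 7, liver minus primary tumor, none was called by edgeR (0.814% of all genes), with 5 at an unadjusted p under 0.05 (20.4% of all genes) and 4 called by DESeq2 (4.79%).

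The other 4 differences of responses had no call among the members and none among all genes (0% each). Lung minus primary tumor at day 7 had 1 member at an unadjusted p under 0.05 (10.5% of all genes) and 0 called by DESeq2 (0.594%). Liver minus lung at day 14 had 0 (3.01%) and 0 (0.0127%). Liver minus primary tumor at day 14 had 5 (4.14%) and 1 (0.102%), and lung minus primary tumor at day 14 had 3 (7.16%) and 1 (0.361%). The call by DESeq2 was Muc5ac, lower, in both of the last pair, a gene with 1 count in each day 14 primary tumor library labelled off.

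Organs were then compared within 1 label, with the day as a covariate in a fit over all libraries of that label. These comparisons share libraries with each other and with the label comparisons. Among libraries labelled off, 7 of 10 members were called between lung metastases and primary tumors, all higher in the lung, beside 18.4% of all genes. Muc5ac was at 5.67 to 53.5 CPM in the 8 lung libraries and at 0 to 2.78 CPM in the 5 primary tumors (log2 fold change 5.08 ± 1.11, edgeR adjusted p = 0.00235). Cldn18 was at 2.15 to 7.78 CPM against 0.0589 to 0.391 CPM (4.26 ± 0.61, edgeR adjusted p = 0.000107). These did not overlap, nor did Tff2, Tff3 and Agr2, with log2 fold changes of 2.95, 3.68 and 3.25. Tff1 (3.21) and Gkn1 (2.95) were called with overlapping ranges.

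Liver metastases labelled off had 4 members called over the primary tumors, all higher, beside 8.68% of all genes. Tff3 was at 1.97 to 116 CPM against 1.62 to 2.58 CPM (log2 fold change 4.60 ± 0.64, edgeR adjusted p = 0.00138). The others were Agr2 (3.12 ± 0.71), Tff2 (2.63 ± 0.54) and Cldn18 (2.09 ± 0.62). All 4 ranges overlapped, through the paired-end library. Without it 7 members were called (15.3% of all genes), and in the libraries without mt-Co3 counts alone 8 (16.2%). Muc1 was at 26.4 to 439 CPM in the liver, 103 to 291 CPM in the lung and 57.6 to 119.5 CPM in primary tumors and was called in neither comparison.

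Between the metastases labelled off, Cldn18 was the 1 member called: it was at 0.105 to 1.505 CPM in the liver and at 2.15 to 7.78 CPM in the lung (log2 fold change -2.17 ± 0.52, edgeR adjusted p = 0.0206), beside 3.95% of all genes. Muc5ac did not overlap either, at 0.527 to 4.42 CPM against 5.67 to 53.5 CPM, but missed the threshold (-2.97 ± 0.99, edgeR adjusted p = 0.0881). The 3 trefoil factors, Muc1, Muc4, Gkn1 and Agr2 had overlapping ranges, with log2 fold changes between -0.76 and 0.92. Leaving out any 1 of 3 libraries (the paired-end library, day 14 liver replicate 3 labelled off or day 7 primary tumor replicate 1 labelled off) raised the number called to 2, beside 4.18%, 5.07% and 3.59% of all genes.

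**Figure D4:**
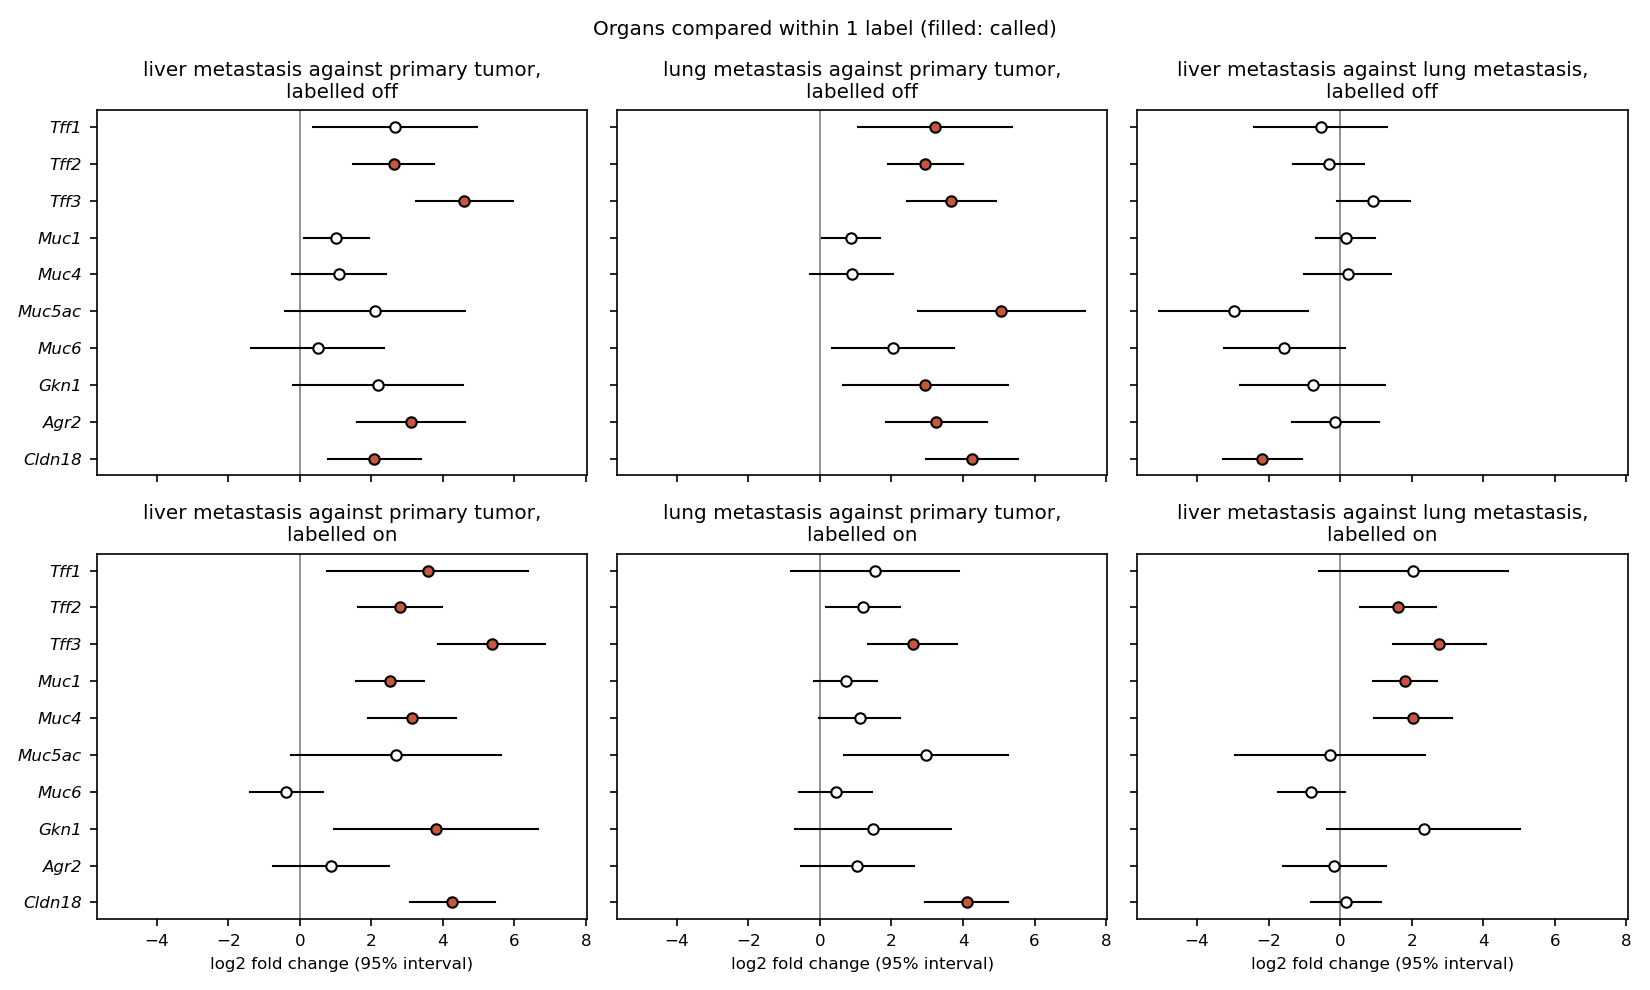
Log2 fold change between organs (x axis) with its 95% interval (line) for each gene (y axis), within libraries labelled Smad4 off (upper panels) and on (lower panels). Filled points were called. Both metastatic sites lay above the primary tumors for nearly every gene, with Muc6 in the liver labelled on (-0.37) as the exception, and in liver against lung labelled off 7 of the 10 genes lay below 0, with the intervals of Cldn18 and Muc5ac wholly below it.

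Among libraries labelled on, the liver metastases had 7 of 10 members called over the primary tumors, all higher, beside 22.2% of all genes. Tff3 was at 177 to 1278 CPM in the 6 liver libraries and at 5.67 to 25.8 CPM in the 5 primary tumors (log2 fold change 5.36 ± 0.70, edgeR adjusted p = 2.22e-05). Cldn18 was at 3.98 to 11.2 CPM against 0.173 to 0.738 CPM (4.27 ± 0.56, edgeR adjusted p = 2.15e-05). Neither range overlapped, nor did those of Muc4 (3.15 ± 0.58), Tff2 (2.80 ± 0.55) and Muc1 (2.53 ± 0.45). Gkn1 (3.81 ± 1.34) and Tff1 (3.58 ± 1.32) were called with overlapping ranges.

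Lung metastases labelled on had 2 members called over the primary tumors, Cldn18 (log2 fold change 4.10 ± 0.54, edgeR adjusted p = 7.5e-05) and Tff3 (2.59 ± 0.59, edgeR adjusted p = 0.00446), beside 13.6% of all genes. With mt-Co3 status as a covariate, and in the libraries without mt-Co3 counts alone, 7 were called (14% and 14.6% of all genes): the 2 above and Muc1, Muc4, Muc5ac, Tff1 and Tff2. Between the metastases labelled on, 4 members were called, all higher in the liver, beside 10.3% of all genes: Tff3 (2.78 ± 0.61), Muc4 (2.03 ± 0.51), Muc1 (1.81 ± 0.42) and Tff2 (1.61 ± 0.50). Their ranges overlapped, and in the libraries without mt-Co3 counts alone Muc1 and Muc4 were called, beside 6.65% of all genes. Agr2 was at 42.1 to 207 CPM in the liver and 32.1 to 306 CPM in the lung, with a 95% interval of the log2 fold change of -1.60 to 1.27. Cldn18 was at 3.98 to 11.2 CPM and 2.34 to 13.8 CPM, with an interval of -0.82 to 1.16.

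Tumor epithelial markers also differed between organs: their summed level was 2462 to 8086 CPM in primary tumors, 3205 to 16420 CPM in liver metastases and 6786 to 13490 CPM in lung metastases. Fibroblast markers ran the other way, at 8822 to 23870 CPM, 225 to 30120 CPM and 145 to 2138 CPM. Pancreatic acinar markers were at 686 to 2981 CPM in primary tumors, 4.91 to 305.8 CPM in the liver and 2.98 to 13.7 CPM in the lung. The 305.8 CPM was that of the paired-end liver library, and the other liver libraries held at most 16.85 CPM. The part of these markers in the higher member levels of the metastases was not tested.

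Cldn18 and Muc5ac are also genes of the lung and its airways. The 6 lung epithelial markers summed to 71.8 to 521 CPM in the lung libraries, against 0.595 to 1.75 CPM in primary tumors and 0.602 to 1.95 CPM in liver libraries. Sftpc, the surfactant protein of alveolar type 2 cells, was at 37.8 to 317 CPM in the lung and at most 0.379 CPM elsewhere, and Scgb1a1 of airway club cells was at 4.61 to 85.8 CPM and at most 0.0669 CPM. The pair of lung libraries with the highest sums, 521 and 482 CPM, held the highest lung Cldn18, 13.8 CPM each, and the one with the lowest, 71.8 CPM, held 2.24 CPM. Muc5ac had another order: its highest lung value, 53.5 CPM, was at a marker sum of 163.8 CPM, and the libraries with sums of 521 and 71.8 CPM held 8.78 and 17.7 CPM. In the liver libraries labelled on Cldn18 reached 3.98 to 11.2 CPM at marker sums of at most 1.95 CPM. The part of lung cells in the lung values was not tested.

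**Figure D5:**
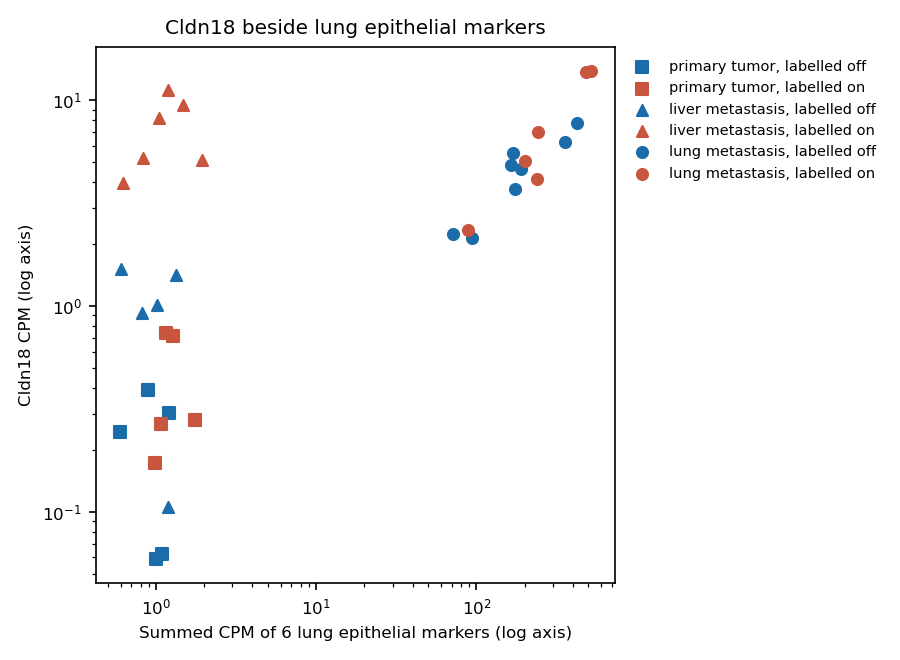
Cldn18 CPM (y axis, log) against the summed CPM of 6 lung epithelial markers (x axis, log), with 1 point per library, squares for primary tumors, triangles for liver and circles for lung metastases, blue for labelled Smad4 off and red for labelled on. The lung libraries sit at 71.8 CPM of markers or more, and the liver libraries labelled on hold 3.98 to 11.2 CPM of Cldn18 at under 2 CPM of markers.

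Of the gastric chief and parietal cell markers, Pgc, the pepsinogen C of chief and mucous neck cells, was at 0.562 to 36.4 CPM in liver libraries, 0.996 to 16.3 CPM in lung libraries and 0.245 to 4.21 CPM in primary tumors. The parietal cell proton pump genes were near 0: Atp4b was at 0 in 33 libraries and Atp4a reached at most 0.591 CPM. Intrinsic factor (Gif), which marks mouse chief cells, was at 0 in 22 libraries and reached at most 1.12 CPM.

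Other genes of the same processes were read in 3 lists, whose members were also chosen with earlier results known. Of 11 other mucins, 6 were tested in primary tumors. At day 7, 1 was called, the membrane mucin Muc13, beside 1.33% of all genes. Its mean was 224 ± 24.4 CPM (SD, n = 2) for libraries labelled on, compared with 22.6 ± 5.56 CPM (SD, n = 3) for libraries labelled off. At day 14, 3 were called, all higher, beside 4.64% of all genes: Muc13 (log2 fold change 2.46), Muc3 (2.94) and Muc3a (2.34). Reads of the closely related Muc3 and Muc3a could be split between them, so their values are uncertain.

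Of 20 genes of mucin glycosylation and packaging, 17 were tested, of which 1 was called in primary tumors at day 7 and 4 at day 14, all higher. The shares of all genes called were 1.33% at day 7 and 4.64% at day 14, here and for the gastric genes below. Fut2, the fucosyltransferase of secreted H antigens, rose on both days (1.29 ± 0.22 and 1.43 ± 0.13 on the log2 scale). At day 14 Spdef, a transcription factor of goblet cells, had a mean of 6.13 ± 1.52 CPM (SD, n = 3), compared with 1.19 ± 0.54 CPM (SD, n = 2), and Ern2, the stress sensor of mucous cells, was also called (1.69 ± 0.31). Of 16 other gastric epithelial genes, 0 of 11 tested were called at day 7 and 4 of 12 at day 14, among them Vsig1, a junction protein of gastric epithelium (1.91 ± 0.16), Pgc (3.63 ± 0.37) and Gkn3 (2.47 ± 0.57). No gene of the 3 lists was called by edgeR between labels in liver or lung metastases. At an unadjusted p under 0.05 there were 5 of 7 other mucins, 9 of 17 glycosylation and packaging genes and 8 of 14 gastric genes in day 7 liver metastases, beside 27.1% of all genes, and 4 of 6, 5 of 17 and 7 of 12 at day 14, beside 9.68%. In lung metastases these counts were 0 of 7, 1 of 17 and 3 of 12 at day 7, beside 5.22%, and 2 of 7, 6 of 17 and 2 of 12 at day 14, beside 10.1%.

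Between organs the calls in the 3 lists are set beside the share of all genes called. In lung metastases labelled off (18.4% of all genes) 5 of 7 other mucins, 5 of 17 glycosylation and packaging genes and 8 of 12 gastric genes were called over the primary tumors, all higher. Among them were Muc3 (5.04), Muc13 (2.89), Fcgbp, a mucus component (3.29), Fut2 (2.35) and Gkn2 (7.09 ± 1.49). Gkn2 had a mean of 4.47 ± 7.77 CPM (SD, n = 8) in the lung. In primary tumors it was at 0.036 ± 0.0539 CPM (SD, n = 5), under the 0.0932 CPM or more of 3 counts, so its fold change is uncertain. In liver metastases labelled off (8.68%) the counts were 4 of 7, 6 of 17 and 6 of 12, all higher. Labelled on, they were 5 of 7, 10 of 17 and 7 of 14 in the liver (22.2%), with 1 further gastric gene lower (Aqp5, a water channel, -4.32 ± 0.73), and 4 of 7, 2 of 17 and 3 of 14 in the lung (13.6%, so that the count of glycosylation and packaging genes lay near the share of all genes), with 1 further gastric gene lower there (Ctse, cathepsin E, -2.20 ± 0.54).

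Between liver and lung metastases labelled off (3.95%), 1 of the other mucins was called, Muc5b, the main airway mucin, which was lower in the liver (-2.66 ± 0.75). Labelled on (10.3%), 4 of 7 other mucins, 8 of 17 glycosylation and packaging genes and 7 of 14 gastric genes were higher in the liver, led by Galnt7, a glycosyltransferase of O-glycosylation (1.28 ± 0.13), Fut2 (1.51 ± 0.23) and Lgals4 (1.67 ± 0.26). Muc5b (-1.97 ± 0.61) and Aqp5 (-6.02 ± 0.76), which lung alveolar type 1 cells also carry, were lower there. In the differences of responses, Pgc (5.03 ± 0.97, higher) and Aqp5 (-8.88 ± 1.73, lower) were called for liver minus lung at day 7, beside 1.86% of all genes. Galnt7 (1.67 ± 0.29, higher) was called for liver minus primary tumor at day 7, beside 0.814%. Muc20, one of the other mucins called in liver over lung metastases labelled on (1.96 ± 0.51), overlaps Muc4 on the opposite strand, and the counting was not stated to use strand, so the reads of the overlapping stretch cannot be told apart.

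Across the 35 libraries the levels of Muc1 and Muc4 were the most alike of the members compared (Spearman's rho 0.945), followed by Tff2 and Muc1 (0.922), and those of Muc4 and Muc5ac the least (0.311). Muc6, too low for this, was left out. Among 13912 genes at 1 CPM or more in at least 10 libraries, the genes most like Tff2 were Cutal (0.972), Prr15l (0.959) and Gpd1 (0.952), those most like Tff3 were Ugt2a3 (0.956), Cyp2c65 (0.955) and Oit1 (0.954), and those most like Tff1 were Lgals9 (0.931), Crot (0.907) and Aldh3a2 (0.899). Slc44a4 (0.967), Stx3 (0.964) and Tmem184a (0.958) were most like Muc1, and Muc1, Fam124a (0.943) and 2210407C18Rik (0.943) most like Muc4. For Cldn18 these were Ifit1bl1 (0.921), Foxa3 (0.904) and Clic5 (0.888).

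Muc5ac had less close neighbours, Cyp2b10 (0.822), Hpgd (0.814) and Dgat1 (0.811), as did Gkn1, with Mettl26 (0.855), Atp5s (0.853) and 2010016I18Rik (0.849), and Agr2, with Ccnd2 (0.865), Ltbr (0.855) and Slc16a13 (0.850). These values are descriptions: the libraries share organs, labels and mt-Co3 status.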

How the data were processed

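RNA of sorted mKate2+ cells was sequenced as 75 bp reads from stranded mRNA libraries. Per the labels and the submitters' processing notes, the authors checked reads with FastQC 0.11.5, trimmed them with Trimmomatic 0.36, aligned them to GRCm38 with STAR 2.5.3a and counted reads per gene with featureCounts 1.6.3. The deposited table holds raw counts and a transcript length for 53465 genes in 35 libraries, and whether counting used strand was not given in the sources used here. Libraries were grouped by their labels. Part of the genotype is not reported here. The members and gene lists were chosen with earlier results of these data known, and the named list genes are the 3 with the lowest adjusted p among those called, with lower ones added.

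Counts were tested with edgeR 4.0.16 in R 4.3.3 (TMM, filterByExpr, robust quasi-likelihood), with Benjamini-Hochberg adjustment over all genes tested and a fold change over 2. Label comparisons used the libraries of 1 organ and day, organ comparisons all libraries of a label with the day as covariate, and differences of responses an interaction term. CPM used library totals without further scaling, and SE is that of the log2 fold change. The scripts were tested on simulated counts with 200 genes changed 4-fold. In day 7 liver metastases edgeR recovered 26% of them with 7 false calls, and DESeq2 63.5% with 110. In day 14 liver metastases the values were 53.5% with 6 and 75.5% with 72. For liver minus lung at day 7 edgeR recovered 13%, and in day 14 primary tumors 89.5%. Lack of an edgeR call in these liver comparisons therefore does not show lack of a change. No 2 libraries held identical values. The labels do not say whether replicates came from separate mice or which cell line each carried, so p-values measure the spread between these libraries, which may be technical. Every same-numbered pair correlated over 0.1 in its deviations from the group means in day 14 lung metastases alone (0.546 to 0.653). There the same-numbered library was the closest match for number 3 only. Numbers 3 and 4 are also those with mt-Co3 counts, so the numbers do not establish pairs. Alternatives were DESeq2 1.42.0, its size factors, other filters, no fold threshold, a replicate block, 1 fit of 12 groups, leaving out each library, and fits by mt-Co3 status, some of these added after seeing the data.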

Additional observations from a re-analysis of the deposited data

Results flagged for a closer look

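Muc6 stood at 4.88 CPM in lung metastasis day 7 labelled off replicate 4, while the other 3 libraries of that group held 0.464 to 0.939 CPM. The gap was 0.892 of the group's range, and 30 combinations of a group of 4 libraries and a gene were examined in this way, of which chance singles out about 1 in 20. The difference between labels in Muc5ac itself differed between liver and lung metastases at day 7 by 6.86 on the log2 scale (edgeR adjusted p = 0.0372). In liver metastases Muc5ac was higher in every library labelled on than in those labelled off at day 7 and lower in every one at day 14, a difference in log2 fold change of 6.59 between the days that was not tested.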

How the results depend on the processing

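Of the 31 calls of a member in a comparison, 658 alternative values kept direction and call, 73 lost the call and 0 changed direction. Of 142 pairs not called, 43 changed sign under some alternative and 58 were called under some alternative, none of those with a changed sign. The cause of these changes was not tested, and percentages are the shares of all genes called in the same fit. DESeq2 was run on every gene with a count, without the filter on low counts. Its shares are therefore of a larger set of genes than those of the main edgeR fits. Counts printed without a percentage carry no such share here and are not read as a result about the members. In the main fits that share ran from 0% to 22.2%, so such counts cannot be compared between fits. DESeq2 called 2 members in primary tumors at day 7 and 5 at day 14. In liver metastases it called 7 (9.87%) at day 7 and 6 (1.18%) at day 14, and in lung metastases 1 (0.734%) at day 14. It called 2 for liver against lung labelled off and 4 for lung against primary tumor labelled on. For the differences of responses it called 6 (6.05%) for liver minus lung and 4 (4.79%) for liver minus primary tumor at day 7. At day 14 it called 1 (0.102%) for liver minus primary tumor and 1 (0.361%) for lung minus primary tumor. The fit with no filter on low counts called 2 in day 7 primary tumors. With the replicate block 0 were called in day 7 primary tumors, 0 in day 7 liver metastases and 0 for liver against lung labelled off. The block gave 0 for the difference of liver and lung responses at day 7 and 1 (0.739%) in day 14 lung metastases. Same-number correlations were 0.546 to 0.653 in that lung comparison and -0.354 to 0.479 elsewhere. In the lung comparison only number 3 had the same-numbered library as its closest match, and the block moved no member other than Tff3 across the threshold. The 1 fit of 12 groups called 0 (0.239%) and 0 (0.0912%) in primary tumors at day 7 and 14, 6 (17.6%) in day 7 liver metastases, 2 for liver against lung labelled off, 4 for lung against primary tumor labelled on, and 5 (11.6%) and 3 (5.08%) for the day 7 responses of liver minus lung and liver minus primary tumor. With mt-Co3 status as covariate the counts were 4 (6.38%) in day 7 liver metastases, 2 (0.861%) in day 14 lung metastases and 7 (14%) for lung against primary tumor labelled on. They were 5 and 3 for the same day 7 responses and 1 for lung minus primary tumor at day 14. In the libraries without mt-Co3 counts alone they were 8 (16.2%) for liver against primary tumor labelled off. For liver against lung labelled on they were 2 (6.65%), and for lung against primary tumor labelled on 7 (14.6%). Without the paired-end library they were 2 (4.18%) for liver against lung labelled off and 7 (15.3%) for liver against primary tumor labelled off. Leaving out 1 library at a time gave 0 to 1 in day 7 and 2 to 6 in day 14 primary tumors, 0 to 8 (0% to 19.8%) in day 7 liver metastases, 1 to 2 for liver against lung and 3 to 7 for liver against primary tumor labelled off, 0 to 7 for the day 7 response of liver minus lung and 0 to 7 for liver minus primary tumor. Where a fit left 1 library in a group, that library was assumed to vary like the others. Muc6 had 0 to 19 counts in 34 of the 35 libraries, and Muc5ac and Cldn18 had at most 46 and 9 counts in primary tumors, where 3 counts equalled 0.0932 to 0.246 CPM.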
